A study of Mus musculus with 6 samples.

Results

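The 70 genes described here are protein-coding genes that MC3T3 cells carried at very low RNA levels and whose mean level was higher after exposure to endothelial exosomes. They were chosen from the deposited table of 680 genes by 4 criteria. A gene had to be protein-coding in the GENCODE M21 annotation, lie outside chromosome Y, have a mean under 1 FPKM over the 6 libraries, and have a higher mean in the exosome than in the control libraries. FPKM counts the sequenced fragments of a gene per length of its exons and per size of the library. Actc1, which met these criteria, was left out by name, as were 6 named genes that did not meet them. Of the 70 genes, 13 were listed at 0 in every control library. The measured values thus chose the genes and their direction, so the levels below are a description and no test is given for a single gene.

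MC3T3 is a mouse pre-osteoblast line, which the labels describe as bone and as stem cells. The 3 control libraries came from untreated cells. The 3 exosome libraries came from cells given exosomes of HUVEC, primary human endothelial cells of the umbilical vein, for 48 hours. Each title numbers its library as a biological repeat, and separate cultures are not mentioned.

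Exosomes are small membrane vesicles that carry protein, lipid and RNA from the cell that releases them to others. Osteoblasts and the endothelium of bone vessels exchange signals in both directions, and the series title places the PERK-ATF4 branch of the endoplasmic reticulum stress response in that exchange. Several of the genes described here are best known from other tissues, among them leukocytes, retina, heart, kidney, testis and the sensory epithelia of the nose. At such low levels the reads per gene and library can be few, and here they ran from 0 to 258. In a bulk sample, more cells with a transcript and more transcript per cell cannot be told apart.

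The authors had selected all 680 genes of the table as changed on these same libraries, per the name of the deposited file. Depth was 39630446, 43570886 and 48369052 reads in the control and 52125806, 54429032 and 51315986 reads in the exosome libraries, so the exosome group was sequenced 1.20 times as deeply. FPKM corrects for depth, but a deeper library detects rare transcripts more often. The part of depth in the values at 0 was not tested. Of 34 genes that mark osteoblasts and mineralisation, 2 were in the table, Dmp1 and Fam20c, and both had the lower mean with exosomes. The rest of that list was not analysed here, so the cell label could not be checked further. None of 21 endothelial and none of 29 leukocyte markers was in the table. Absence from a table of genes selected as changed does not show that a marker's RNA was absent. Selp, Cd177 and P2ry10, described below, were not on these lists.

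Among the 70 genes the mean over the 6 libraries ran from 0.00255 to 0.862 FPKM, with a median of 0.119. The median control mean was 0.0617 FPKM and the median exosome mean 0.181 FPKM. For the 57 genes above 0 in at least 1 control library, the exosome mean was 1.95 to 11.7 times the control mean, with a median of 2.42. Most of these ratios were small, with 5 under 2, 34 from 2 to 3, 8 from 3 to 4 and 10 at 4 or above. None lay between equality and 1.95, and over all higher genes of the table with a control value the lowest ratio was 1.93. The median and spread of the ratios thus depend on which genes the authors selected. The whole table had a median ratio of 0.414 over genes with both means above 0, because most listed genes were lower.

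Every exosome library exceeded every control library in 61 of the 70 genes, against 22.8 percent of the table in that direction. The table held 177 genes with a higher exosome mean, of which 155 had such groups, so the 70 genes do not stand out in this. Fen1, Iyd, Scd3, Nanp, Defb42, Myh6, Ccdc187, Fam131c and 1700056E22Rik were the 9 genes whose groups overlapped. By limma on log2(FPKM + 1), 36 of the 70 had an adjusted p under 0.05, against 15.4 percent of the table called higher. Both the selection of the table and the choice of the genes used this contrast, so neither count adds evidence. With other settings both the count and the share of the table called higher moved. They were 49 of 70 and 20.6 percent with a pseudocount of 0.1, 61 and 22.9 percent with 0.01, 51 and 143 of 680 genes with a trended and robust prior, and 64 and 23.0 percent by limma-voom on recovered reads. They were 67 and 31.2 percent after centring each library on its median, 22 of 37 tested and 94 of 428 genes at a mean of at least 0.1 FPKM, and 9 and 7.94 percent with a replicate block. Without control libraries 1, 2 and 3 in turn the count was 21, 18 and 23, with 76, 72 and 74 of 680 genes called higher. Without exosome libraries 1, 2 and 3 it was 17, 12 and 16, with 11.5, 7.06 and 7.5 percent. The median difference on the log2(FPKM + 1) scale was 0.14, against -0.13 over all genes of the table. That scale compresses differences between levels far below 1.

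**Figure D1:**
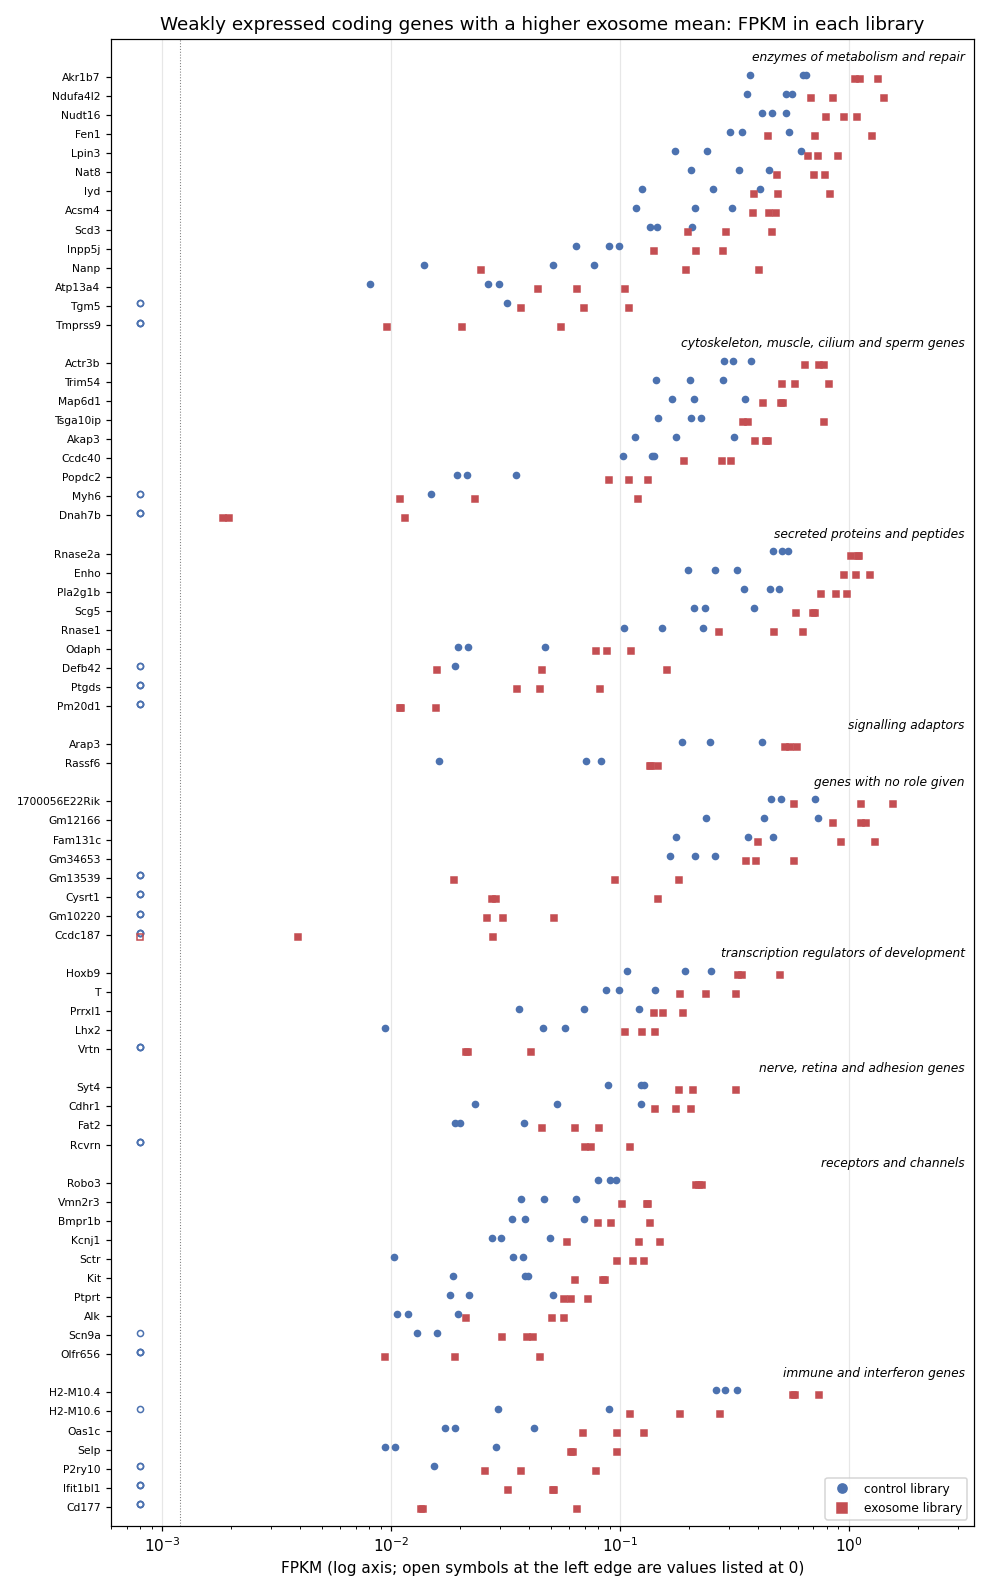
FPKM of 68 of the 70 genes in the 3 control libraries (circles) and the 3 exosome libraries (squares), on a log axis, grouped by role. Open symbols at the left edge are values listed at 0, and the exosome symbols lie to the right of all control symbols in 59 of these 68 genes.

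**Figure D2:**
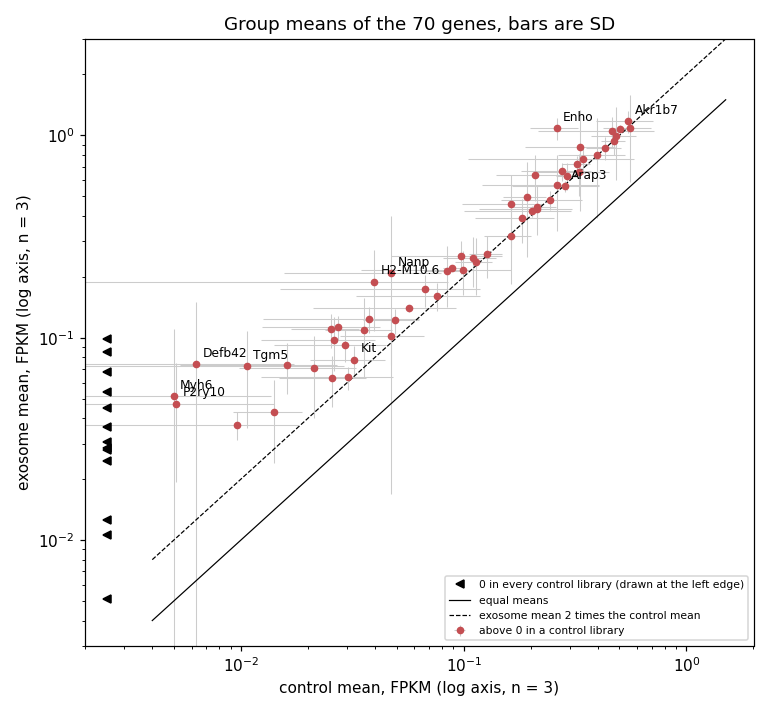
Exosome mean against control mean in FPKM on log axes, with SD bars over 3 libraries per group that run off the edge where they reach 0. The points lie near or above the line at 2 times the control mean, and the 13 genes at 0 in every control library are drawn at the left edge.

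At the upper limit of the level rule, Akr1b7, 1700056E22Rik and Rnase2a lay just inside with means of 0.862, 0.823 and 0.790 FPKM. Fibin, Ppih and Gnat2 lay just outside with 1.00, 1.01 and 1.17 FPKM. For the direction, 1700056E22Rik, Scd3 and Map6d1 had the lowest ratios inside, at 1.95, 1.95 and 1.97. Map3k15, Syce2 and Lfng were the closest outside, at 0.482, 0.477 and 0.477.

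The secreted proteins and peptides were 9 genes, of which 2 were at 0 in every control library. Groups did not overlap in 8 of them, against 61 of all 70 genes. Rnase2a, a ribonuclease of the eosinophil-associated family, had 0.512, 0.466 and 0.539 FPKM in the control and 1.11, 1.09 and 1.02 in the exosome libraries. The spread was small in both groups, with 0.506 ± 0.0372 against 1.07 ± 0.0502 FPKM (SD, n = 3 per group), a ratio of 2.12. Rnase1, the pancreatic-type ribonuclease, lies 108477 bases from Rnase2a on chromosome 14 and had means of 0.163 FPKM without and 0.457 FPKM with exosomes. Enho encodes adropin, a small peptide linked to energy balance. Its control values were 0.199, 0.326 and 0.261 FPKM and its exosome values 1.07, 1.23 and 0.952 FPKM. At 4.15 times the control mean, Enho had the highest ratio among the 15 genes of highest mean level. Its exons share bases with Dnaic1 on the opposite strand, a gene not analysed here. Whether reads were assigned by strand is not given in the sources used here, so reads of the 2 genes cannot be told apart.

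Pla2g1b, the pancreatic secreted phospholipase A2, had 0.495, 0.451 and 0.348 FPKM in the control and 0.753, 0.979 and 0.875 in the exosome libraries. Scg5, a chaperone of a prohormone convertase, had 0.386, 0.234 and 0.211 FPKM against 0.709, 0.586 and 0.696. Both genes had groups that stood clearly apart, with ratios of 2.01 and 2.40. Odaph, a protein of enamel mineralisation, had a mean of 0.0295 against 0.0924 FPKM on 3, 3 and 8 against 16, 15 and 20 reads. Defb42, a beta-defensin, was listed at 0, 0.0189 and 0 FPKM in the control and at 0.0158, 0.0455 and 0.161 in the exosome libraries. Its ratio of 11.7 was the highest of all and rested on few reads, 2 in the control against 28 in the exosome group. Its reads were even in every library, and in read pairs, 1 against 14, the exact 95% interval of the depth-scaled ratio ran from 1.78 to 493. That interval covers counting error only and takes no account of the choice of genes by direction. Without exosome library 3 the ratio of Defb42 was 4.86. Ptgds, which makes prostaglandin D and carries lipophilic molecules, and Pm20d1, which forms and cleaves N-acyl amino acids, were at 0 in every control library.

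The enzymes of metabolism and repair numbered 14, of which 1 was at 0 in every control library. Groups stood apart in 10 of them, against 61 of all 70 genes. Akr1b7, an aldo-keto reductase known from the vas deferens and the adrenal gland, had the highest mean of the 70 genes. It had 0.650, 0.627 and 0.371 FPKM in the control and 1.12, 1.06 and 1.34 in the exosome libraries, a ratio of 2.14. Nudt16, a hydrolase of inosine nucleotides, had 0.419, 0.531 and 0.463 FPKM against 0.792, 0.95 and 1.08. In both genes the lowest exosome value lay well above the highest control value. Ndufa4l2, a mitochondrial protein known from hypoxia, had 0.530, 0.566 and 0.359 FPKM in the control and 0.683, 0.856 and 1.42 in the exosome libraries. Fen1, the flap endonuclease of DNA replication and repair, had 0.302, 0.550 and 0.341 FPKM against 0.444, 0.713 and 1.25. Library 3 was the highest exosome library in both, and in Fen1 the lowest exosome value was below the highest control value. Fen1 shares exon bases with Tmem258, and Ndufa4l2 with Shmt2, neither of them analysed here.

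Lpin3, a phosphatidate phosphatase of the lipin family, had 0.239, 0.174 and 0.616 FPKM in the control and 0.893, 0.736 and 0.659 in the exosome libraries. Control library 3 set its ratio, which was 2.22 with all libraries and 3.69 without that library. Nat8, an N-acetyltransferase of kidney and liver, had 0.449, 0.204 and 0.331 FPKM against 0.7, 0.785 and 0.486. Its lowest exosome value was only slightly above its highest control value. Iyd, the deiodinase that recovers iodide in the thyroid, Acsm4, a medium-chain acyl-CoA synthetase, and Scd3, a stearoyl-CoA desaturase, had exosome means of 0.568, 0.435 and 0.317 FPKM. Their control means were 0.262, 0.213 and 0.162 FPKM.

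Nanp, the phosphatase of sialic acid synthesis, had 0.0509, 0.0771 and 0.0139 FPKM in the control and 0.193, 0.0247 and 0.406 in the exosome libraries. Exosome library 2 lay inside the control range, and the ratio of 4.40 was 2.31 without exosome library 3. Part of its transcript, 53.6%, matches the processed pseudogene Gm6741 over a run of 747 bases with 100% identity. Tgm5, a transglutaminase of the epidermis, had 0.0320, 0 and 0 FPKM against 0.110, 0.0699 and 0.0371, on 4 control and 36 exosome reads in all. Inpp5j, an inositol phosphatase, and Atp13a4, a P-type ATPase, had ratios of 2.52 and 3.33. Tmprss9, a membrane-bound serine protease, was at 0 in every control library and shares exon bases with Timm13.

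The immune and interferon genes were 9, of which 2 were at 0 in every control library. All 9 had groups apart, against 61 of all 70 genes. Against 2.42 over the 57 genes above 0 in a control library, the median ratio of the other 7 was 3.75. Their reads were few, and no leukocyte marker of the list was in the table. H2-M10.4, a non-classical class I histocompatibility gene, had 0.286, 0.326 and 0.264 FPKM in the control and 0.571, 0.743 and 0.581 in the exosome libraries. H2-M10.6, its relative 349837 bases away on chromosome 17, had 0.0897, 0 and 0.0294 FPKM against 0.273, 0.183 and 0.111. Both members of the pair were higher in every exosome library than in any control library. The ratio of H2-M10.6 was 4.76 with all libraries, on 7 control reads. Without control library 1 it was 12.8, on 2 reads of control library 3.

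Selp encodes P-selectin, which captures leukocytes on activated endothelium and platelets. It had 0.0286, 0.0104 and 0.00937 FPKM in the control and 0.0609, 0.0624 and 0.0972 in the exosome libraries, on 9 against 51 reads. The ratio of Selp was 4.56 with all libraries and 7.43 without control library 1. P2ry10, a receptor of lysophospholipids on leukocytes, had 0, 0.0154 and 0 FPKM against 0.0257, 0.0370 and 0.0784. It had 2 control reads against 22, and in read pairs, 1 against 11, the same kind of interval ran from 1.33 to 395. Its FPKM ratio of 9.17 was 6.11 without exosome library 3. Cd177, a surface glycoprotein of neutrophils, was at 0 in every control library.

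Ifit1bl1 and Oas1c belong to families of interferon-induced genes, the first related to proteins that bind viral RNA and the second to enzymes that sense double-stranded RNA. Ifit1bl1 had no read in any control library and had 0.0509, 0.0325 and 0.0517 FPKM in the exosome libraries, on 6, 4 and 6 reads. Oas1c had 4, 2 and 2 reads in the control and 16, 9 and 12 in the exosome libraries, for means of 0.0261 ± 0.0138 and 0.0979 ± 0.0294 FPKM. In both, all exosome values exceeded all control values. Of 46 interferon response genes listed, 2 were in the table. Ifit1bl1 was the 1 with the higher mean, and Gbp4 had the lower mean. Oas1c was not on that list.

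The promoters of both genes are shown because their families respond to interferon, and that of Rnase1 because it holds a match to the same pattern. They are RefSeq windows of GRCm38.p6 from 250 bases before to 50 after the annotated start, written on the strand of the gene. Capitals mark matches to the interferon-stimulated response element, searched on both strands as GAAA, 2 bases of any kind and GAAA, and all of them lie on the opposite strand. They lie at chr19:34601919-34602218 for Ifit1bl1, chr5:120812465-120812764 for Oas1c and chr14:51146718-51147017 for Rnase1, each on the minus strand.
Ifit1bl1: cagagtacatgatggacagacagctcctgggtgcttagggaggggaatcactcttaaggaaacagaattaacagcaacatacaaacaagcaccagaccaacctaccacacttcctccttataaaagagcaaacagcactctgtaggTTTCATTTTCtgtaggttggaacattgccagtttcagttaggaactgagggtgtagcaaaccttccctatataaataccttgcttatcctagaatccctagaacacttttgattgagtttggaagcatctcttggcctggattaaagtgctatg
Oas1c: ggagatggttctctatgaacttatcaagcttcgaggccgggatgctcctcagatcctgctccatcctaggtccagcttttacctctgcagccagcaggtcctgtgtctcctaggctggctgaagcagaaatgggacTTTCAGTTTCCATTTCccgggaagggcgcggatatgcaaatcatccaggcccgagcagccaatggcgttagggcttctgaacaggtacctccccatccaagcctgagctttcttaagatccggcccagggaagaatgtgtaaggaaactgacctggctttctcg
Rnase1: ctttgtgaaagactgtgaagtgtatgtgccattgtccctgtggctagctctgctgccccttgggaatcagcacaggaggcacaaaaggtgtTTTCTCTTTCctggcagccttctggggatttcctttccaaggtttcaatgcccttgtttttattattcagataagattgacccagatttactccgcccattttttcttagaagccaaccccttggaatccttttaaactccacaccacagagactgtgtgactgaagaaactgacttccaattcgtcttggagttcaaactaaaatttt
Oas1c holds 2 overlapping matches, and a further annotated promoter of Ifit1bl1 holds a match with the same letters as the one printed. RefSeq windows were found for 56 of the 70 genes, 68 windows in all. The motif was in 4 of these 68 windows (5.88%) and in 3.44% of all 32851 windows, and the share among promoters of the 192 weakly expressed coding genes that were lower was 1.92%. A match is a run of letters and not a shown binding site.

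The receptors and channels were 10 genes, of which 1 was at 0 in every control library. The groups of all 10 stood apart, against 61 of all 70 genes. Robo3, a receptor of axon guidance, had 0.0958, 0.0804 and 0.0906 FPKM in the control and 0.216, 0.228 and 0.222 in the exosome libraries. Its coefficient of variation over the exosome libraries, 2.78%, was the lowest of the 70 genes. Bmpr1b, a type I receptor of bone morphogenetic proteins, which drive bone formation, had 8, 10 and 20 reads in the control and 42, 26 and 28 in the exosome libraries. Its means were 0.0472 ± 0.0193 and 0.102 ± 0.0290 FPKM.

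Kit, the receptor of stem cell factor, had 0.0323 ± 0.0119 against 0.0780 ± 0.0127 FPKM. Alk, a receptor tyrosine kinase of the nervous system, had 0.0140 ± 0.00481 against 0.0428 ± 0.0189 FPKM. Ptprt, a receptor tyrosine phosphatase, had a ratio of 2.11, which was 3.19 without control library 3. Thus Kit, Alk and Ptprt all had exosome means under 0.1 FPKM. Sctr, the receptor of the gut hormone secretin, had 0.0376, 0.0342 and 0.0103 FPKM in the control and 0.114, 0.128 and 0.0969 in the exosome libraries, a ratio of 4.13 on 7 against 36 reads. Kcnj1, a potassium channel of the kidney, and Scn9a, a sodium channel of pain neurons, had ratios of 3.07 and 3.87. Vmn2r3, a pheromone receptor of the vomeronasal organ, had 0.0491 ± 0.0138 against 0.122 ± 0.0169 FPKM. The odorant receptor gene Olfr656 was at 0 in every control library.

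The transcription regulators of development were 5 genes, all with groups apart, against 61 of all 70 genes. Hoxb9, a homeobox gene that patterns the body axis, had 0.183 ± 0.0714 against 0.390 ± 0.0952 FPKM. T encodes brachyury, the regulator of mesoderm and notochord, and had 0.110 ± 0.0293 against 0.247 ± 0.0692 FPKM. Lhx2, a homeobox regulator of forebrain and eye, had 0.0376 ± 0.0251 against 0.124 ± 0.0187 FPKM, the highest ratio of this group at 3.29. Prrxl1, a homeobox regulator of sensory neurons, had 0.0756 ± 0.0427 against 0.161 ± 0.0249 FPKM. Vrtn, known from the number of vertebrae in pigs, was at 0 in every control library.

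The genes of cytoskeleton, muscle, cilium and sperm were 9, of which 1 was at 0 in every control library. Groups stood apart in 8 of them, against 61 of all 70 genes. Actr3b, a relative of the actin-nucleating protein Arp3, had 0.312, 0.284 and 0.375 FPKM in the control and 0.775, 0.644 and 0.739 in the exosome libraries. Its ratio was 2.22, with each exosome value above each control value. Map6d1, which stabilises microtubules, and Trim54, a ubiquitin ligase of striated muscle, had exosome means of 0.480 and 0.637 FPKM against 0.244 and 0.209. Popdc2, a membrane protein of heart and skeletal muscle, had 0.0214, 0.0194 and 0.0350 FPKM in the control and 0.0894, 0.109 and 0.132 in the exosome libraries, a ratio of 4.36.

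Myh6, the alpha myosin heavy chain of heart muscle, had 0.0150, 0 and 0 FPKM in the control and 0.1198, 0.0109 and 0.0232 in the exosome libraries. Exosome library 1 set its mean, so that the ratio of 10.3 was 3.41 without that library, and the groups overlapped. Of 31 striated muscle markers, 2 were in the table, Myh6 and Actc1, and both had the higher mean with exosomes. Of the cilium and sperm genes, Ccdc40, needed for the beat of cilia, had a ratio of 2.03, and Akap3, a scaffold of the sperm tail, one of 2.08. Tsga10ip, known from testis, had 0.192 ± 0.0412 against 0.495 ± 0.246 FPKM, with exosome library 3 the highest at 0.779. Dnah7b, an axonemal dynein, was at 0 in every control library. Of its transcript 99.3% matches Dnah7a at 96.9% identity over the longest run, so its reads are uncertain.

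The nerve, retina and adhesion genes were 4, all with groups apart, against 61 of all 70 genes. Syt4, a vesicle protein of neurons, had 0.113 ± 0.0214 against 0.236 ± 0.0743 FPKM, and Fat2, a giant cadherin, had 0.0257 ± 0.0109 against 0.0633 ± 0.0177 FPKM. Cdhr1, a cadherin of photoreceptors, had a ratio of 2.60, which was 4.55 without control library 3. Rcvrn, the calcium sensor recoverin of photoreceptors, was at 0 in every control library and was, with Ifit1bl1 and Pm20d1, among the most even of such genes over the exosome libraries. The signalling adaptors were Arap3, a GTPase-activating protein controlled by phosphoinositides, and Rassf6, a Ras association protein. Arap3 rested on the most reads of the 70 genes, 59, 86 and 161 in the control and 219, 258 and 227 in the exosome libraries. Its means were 0.284 ± 0.1197 and 0.559 ± 0.0340 FPKM, and those of Rassf6 were 0.0566 ± 0.0355 and 0.140 ± 0.00614 FPKM.

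No role is given here for the other 8 genes, of which 4 were at 0 in every control library. Groups stood apart in 5 of them, against 61 of all 70 genes. The gene 1700056E22Rik had 0.714, 0.505 and 0.455 FPKM in the control and 0.573, 1.13 and 1.56 in the exosome libraries. Gm12166 had 0.730, 0.237 and 0.427 FPKM against 1.13, 0.854 and 1.19. Fam131c had 0.176, 0.465 and 0.361 FPKM against 0.402, 0.923 and 1.30. Exosome library 1 lay within the control range in 1700056E22Rik and Fam131c, while Gm12166 had no overlap. Of the Gm12166 transcript, 98.9% matches Sft2d1 with 99.5% identity over the longest run, so its reads are uncertain. Gm34653 had a mean of 0.212 against 0.441 FPKM.

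The 13 genes at 0 in every control library were Gm13539, Rcvrn, Cysrt1, Ptgds, Ifit1bl1, Gm10220, Cd177, Tmprss9, Vrtn, Olfr656, Pm20d1, Ccdc187 and Dnah7b. FPKM times exon length came out in whole reads, within 0.02, for all 70 genes in all 6 libraries, which gives the reads behind each value. Each of the 13 rested on 14 to 17 reads summed over the exosome libraries. Because exon lengths differ, these similar read numbers gave exosome means from 0.00510 to 0.0982 FPKM. For comparison, the 57 genes with a control value had 22 to 704 summed exosome reads, with a median of 127. Among the 192 weakly expressed coding genes with a lower exosome mean, 29 were at 0 in every exosome library, with 10 to 54 summed control reads.

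Even numbers made up 33 of the 39 exosome read values of the 13 genes, and 72.9% of all 210 exosome values of the 70. Counting both mates of a read pair gives even numbers, and whether mates were counted singly is not given in the sources used here. If they were, the independent fragments are fewer than the reads. The floor for a group at 0 was therefore set at 3 read pairs, or 6 reads, over its 3 libraries, and covers counting error only. Without control library 1 Myh6 and Tgm5 would join these genes, and without control library 2 Defb42 and P2ry10 would. Against that floor, with depth taken into account, the summed exosome reads of the 13 genes were 1.94 to 2.36 times as high. The exosome reads were taken as exact, and the genes were chosen by this direction, so these values are not lower bounds. A floor of 3 reads in place of 6 would make these values 2 times as high. In 7 of the 13 genes, 2 to 6 reads were left without the highest exosome library, which is no more than the floor.

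In exosome libraries 1, 2 and 3, Rcvrn had 6, 4 and 4 reads, or 0.111, 0.0707 and 0.0750 FPKM. Pm20d1 had 4, 6 and 4 reads, or 0.0109, 0.0157 and 0.0111 FPKM. Ptgds had 7, 4 and 3 reads, or 0.0814, 0.0446 and 0.0355 FPKM. In Rcvrn, Pm20d1, Ptgds and Ifit1bl1, as also in Vrtn and Gm10220, no exosome library held more than 50% of the reads. Vrtn had 4, 8 and 4 reads, or 0.0213, 0.0407 and 0.0216 FPKM. Gm10220 had 8, 5 and 4 reads, or 0.0515, 0.0308 and 0.0262 FPKM. Its whole transcript, 100%, matches 5031410I06Rik at 96.5% identity over the longest run, so the reads of Gm10220 are uncertain.

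In the other 7 genes a single library carried most of the reads. Tmprss9 had 11, 2 and 4 reads, or 0.0554, 0.00964 and 0.0204 FPKM, and Dnah7b had 12, 2 and 2 reads, or 0.0115, 0.00184 and 0.00195 FPKM. Library 1 was thus the high one in both. Cd177 had 2, 10 and 2 reads, or 0.0135, 0.0647 and 0.0137 FPKM. Olfr656 had 2, 10 and 4 reads, or 0.00938, 0.0449 and 0.0191 FPKM. Gm13539 had 1, 10 and 5 reads, or 0.0188, 0.180 and 0.0955 FPKM. For these it was library 2, and for the remaining pair library 3. Cysrt1 had 2, 2 and 10 reads, or 0.0289, 0.0276 and 0.146 FPKM, and Ccdc187 had 2, 0 and 14 reads, or 0.00390, 0 and 0.0278 FPKM. Without its highest library the exosome mean was 0.0150 FPKM for Tmprss9, 0.00189 for Dnah7b, 0.0136 for Cd177 and 0.0142 for Olfr656. It was 0.0572 FPKM for Gm13539, 0.0282 for Cysrt1 and 0.00195 for Ccdc187.

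**Figure D3:**
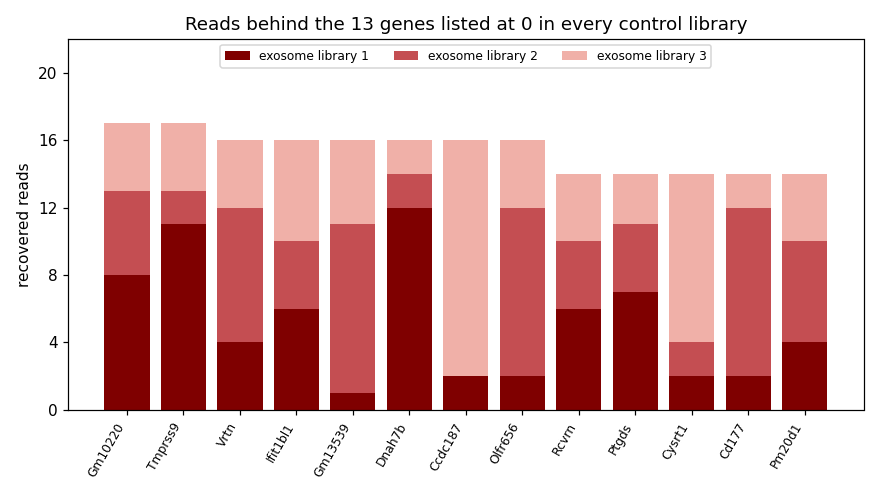
Recovered reads of the 13 genes listed at 0 in every control library, stacked by exosome library. Each bar reaches 14 to 17 reads, and in 7 genes a single library makes up most of the bar.

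No exosome library stood apart over the 70 genes as a whole. Library 1 was the highest in 24 genes, library 2 in 24 and library 3 in 22. The summed level of the 70 genes was 9.68, 9.60 and 10.2 FPKM in the control and 21.5, 22.8 and 25.3 FPKM in the exosome libraries. Genes with few reads varied most between exosome libraries. The coefficient of variation had a median of 75.1% over the 13 genes at 0 in every control library and of 23.5% over the other 57. It was above 50% in 14 of the 70 genes.

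**Figure D4:**
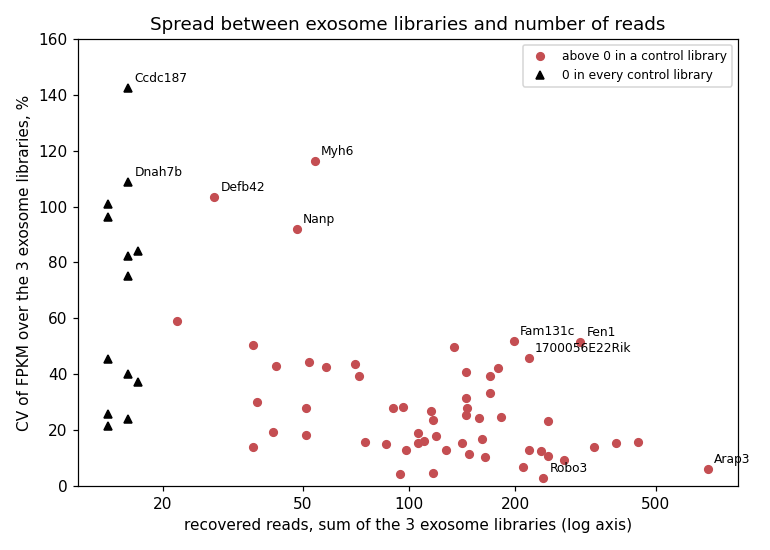
Coefficient of variation of FPKM over the 3 exosome libraries against the reads summed over them, on a log axis, for genes at 0 in every control library (triangles) and the others (circles). Myh6, Defb42 and Nanp lie far above other genes with similar reads, and Arap3, with 704 reads, is among the most even.

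Beyond leaving out chromosome Y, position and overlap with other genes were not used to choose the genes. Exon length entered through FPKM, which divides by it, and thus through the limit on level. The exon length of the 70 genes ran from 690 to 19980 bases with a median of 2910. The median was 3349 in the 192 weakly expressed coding genes with a lower mean and 3289 in all 334 coding genes of the table. Exons overlapped those of another annotated gene in 28.6% of the 70 and in 29.7% of the 192. On the same strand the share was 4.29% against 11.98%, and on the opposite strand 24.3% against 21.4%. In 8 genes the overlap was with exons of another coding gene. These were Enho, Fen1, Ndufa4l2, Nanp, Inpp5j, Tmprss9, Cysrt1 and Popdc2, and none of the 8 partner genes was in the table. In 4 genes, Dnah7b, Gm10220, Gm12166 and Nanp, over 50% of the transcript matched another locus at 95% identity or more.

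On chromosome 2 lay 12 of the 70 genes, or 17.1%, against 11.98% of the coding genes of the table and 8.37% of all GENCODE coding genes. A stretch of 1056 kb on chromosome 2, from 25238818 to 26294557 in GRCm38, was picked after its values were seen. It holds Cysrt1, Ptgds, Gm13539 and Ccdc187, which are 4 of the 13 genes at 0 in every control library. GENCODE annotates 55 coding genes there. The stretch holds 7 genes of the table, these 4 and the coding genes C8g and Kcnt1 and the lincRNA 1810012K08Rik. The latter 3 had lower exosome means, at 0.267 against 0.593 FPKM for C8g, 0 against 0.0119 for Kcnt1 and 0.613 against 1.39 for 1810012K08Rik. Neighbours in the stretch therefore did not share a direction.

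The series title names the PERK-ATF4 pathway. Of 38 genes listed as its targets, 1 was in the table, the amino acid transporter gene Slc7a3, and its mean was lower with exosomes. None of the 70 genes was on that list. ATF4 binds composite elements with C/EBP proteins, searched here as TGATGNAA on both strands. The motif was in 5 of the 68 promoter windows (7.35%), in 3.97% of all 32851 windows, and in 3.21% of the windows of the lower genes. It was found in the windows of Rnase2a, Tgm5 and Scn9a, in 1 of the 2 windows of Fen1, and in the further promoter of Ifit1bl1 at chr19:34599378-34599677. The other window of Fen1, at chr19:10203872-10204171, holds no match. The matching windows of Rnase2a, Fen1, Tgm5 and Scn9a are printed, with the matches in capitals, because the title names the pathway. They lie at chr14:51256063-51256362 for Rnase2a, chr19:10204344-10204643 for Fen1, chr2:121085792-121086091 for Tgm5 and chr2:66634913-66635212 for Scn9a. All are minus-strand RefSeq windows of GRCm38.p6, and the match in Rnase2a is on the opposite strand.
Rnase2a: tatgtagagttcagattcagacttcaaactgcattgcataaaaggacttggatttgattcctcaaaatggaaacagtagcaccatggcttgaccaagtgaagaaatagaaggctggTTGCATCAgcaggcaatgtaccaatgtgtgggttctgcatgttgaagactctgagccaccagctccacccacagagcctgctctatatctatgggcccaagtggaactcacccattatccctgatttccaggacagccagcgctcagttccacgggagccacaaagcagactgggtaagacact
Fen1: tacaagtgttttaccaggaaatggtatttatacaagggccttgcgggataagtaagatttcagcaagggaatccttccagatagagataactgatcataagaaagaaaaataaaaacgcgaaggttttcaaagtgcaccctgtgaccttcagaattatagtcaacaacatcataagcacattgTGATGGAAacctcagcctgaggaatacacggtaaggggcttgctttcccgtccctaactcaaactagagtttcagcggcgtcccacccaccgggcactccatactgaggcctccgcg
Tgm5: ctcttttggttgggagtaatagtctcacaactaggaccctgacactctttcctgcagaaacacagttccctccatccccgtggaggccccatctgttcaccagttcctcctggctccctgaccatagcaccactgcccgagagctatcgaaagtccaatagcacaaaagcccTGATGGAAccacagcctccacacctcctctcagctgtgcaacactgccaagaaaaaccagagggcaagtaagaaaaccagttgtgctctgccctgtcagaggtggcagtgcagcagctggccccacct
Scn9a: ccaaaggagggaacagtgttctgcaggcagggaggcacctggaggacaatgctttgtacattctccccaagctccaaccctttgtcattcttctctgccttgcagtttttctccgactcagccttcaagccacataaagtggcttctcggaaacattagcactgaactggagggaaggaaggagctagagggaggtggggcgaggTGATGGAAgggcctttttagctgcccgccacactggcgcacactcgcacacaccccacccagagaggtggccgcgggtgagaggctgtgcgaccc
No window of the 70 genes held the endoplasmic reticulum stress element, searched on both strands as CCAAT, 9 bases of any kind and CCACG. None held the heat shock element, searched as GAA, TTC and GAA with 2 bases of any kind between neighbours. These were in 0.119% and 0.603% of all windows. CG pairs, which are frequent in promoters of broadly active genes, numbered 6 per window in the median, from 0 to 46, against 7 over all windows.

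Of the other lists and families, the 70 genes held few members. No member was on the lists of adipocyte, cartilage, epithelial, neuronal or germ cell markers, nor on those of cytokines, osteoblast genes or hypoxia. For comparison with the families below, selected by symbol, 177 of the 680 genes of the table had a higher exosome mean. The coiled-coil and cilium genes in the table were 3, all among the 70. Of these, Ccdc187 and Dnah7b rested on 16 reads each, mostly of 1 library. The homeobox and forkhead genes found by symbol were Hoxb9 and Lhx2, both among the 70. The symbol pattern missed the homeobox gene Prrxl1, also among the 70, so these family counts are not complete. Of 10 ion channel genes in the table, 2 were higher, Kcnj1 and Scn9a, and 8 lower. Of 7 G protein-coupled receptor genes selected by symbol, 3 were higher, Olfr656, P2ry10 and Vmn2r3, and 4 lower. None of 6 transporter genes and none of 3 zinc finger genes in the table was higher.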

How the data were processed

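The authors deposited 1 table of FPKM values for genes they had selected as changed, per the name of the deposited file. The aligner, counter, build, annotation and threshold are not given in the sources used here. Trizol extraction and a SMARTer mRNA kit are named per the labels' protocols. Groups came from the sample titles and columns from the library names. Identifiers were matched to GENCODE M21 (GRCm38) for 672 of 680 genes, giving symbols, exon lengths and positions. The step of FPKM times exon length gave whole reads, within 0.02, for 661 genes, and the depth of each library. The only test was limma 3.58.1 (R 4.3.3), run two-sided on log2(FPKM + 1) values with Benjamini-Hochberg adjustment over all 680 genes. It was also run on simulated data, in which most genes were unchanged and none had been selected beforehand. That check therefore does not extend to the genes selected here. The p-values rest on the spread among 3 libraries per group, possibly technical, and the authors' selection makes them too small. Transcripts were compared by BLAST 2.17.0, and promoter windows were from RefSeq. Intervals used scipy 1.17.1 and cover counting error only. The genes and lists were chosen with earlier results of these data known, and the role groups after the gene names were known. The rule for named genes allowed every member, and 2 of the 70 are counted but not reported by name here. Values in every library were planned for the genes at 0 in every control library, the 15 of highest mean, the 10 of highest ratio and those on a list.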

Additional observations from a re-analysis of the deposited data

How the results depend on the processing

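Counts of genes with a limma adjusted p under 0.05 moved with the model. Directions did not reverse, but the rule had chosen the genes by their direction, so this adds no evidence. The 36 genes became 49 with a pseudocount of 0.1, 51 with a trended and robust prior, 61 with one of 0.01, and 64 when limma-voom was run on recovered reads, each including the 36. Centring each library on its median, which raises every difference by 0.15 on the log2 scale, gave 67. Testing no gene under 0.1 FPKM left 22 of 37. Leaving out 1 library gave 12 to 23, with fewer samples. With a replicate block it was 9, all among the 36. For libraries of the same number the deviations had correlations of -0.135, 0.0767 and -0.222, and not every library correlated best with its own number. These values show no pairing by the titles' numbers, but 3 libraries per group are too few to exclude it. The median log2 difference of 0.14 was 0.73 and 1.26 with pseudocounts of 0.1 and 0.01, 0.29 after centring, and 0.12 to 0.15 without 1 library. The median ratio of 2.42 was 2.16 over the genes not under 0.1 FPKM, and 2.30 to 2.65 without 1 library. The rule chose 58 genes under 0.5 FPKM, 78 under 2 FPKM and 70 to 72 without 1 library. Groups stayed apart in 61 to 69 genes, and 13 to 15 genes were at 0 in all controls. Of 377 values of single genes without 1 library, an alternative added after seeing the data, 46 moved by more than 1 SD of the exosome libraries and 0 reversed. Leaving out 1 of 3 exosome libraries cannot move a mean by that SD, so only leaving out a control library could count as moved. Myh6, with a ratio of 10.3 that was 3.41 without exosome library 1, thus counted as not moved. These counts are therefore no measure of stability. Low read numbers limit all of these values.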
